A study of Pimephales promelas with 28 samples.

Results

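Control liver was compared between 48 h and 24 h in fathead minnows, Pimephales promelas, a small freshwater fish used in toxicology. Its arrays were chosen by their labels: 5 arrays of 48 h and 4 arrays of 24 h, all with no agent and a dose of 0 ng per L, out of 28 arrays in the series. The other 19 arrays held 5 controls of 72 h and 14 livers exposed to phenanthrene, a polycyclic aromatic hydrocarbon, at a labelled 29 ng per L for 24, 48 or 72 h. All fish were female and sexually regressed. Their age and whether each array held a separate fish are not given in the labels. The p-values thus treat arrays as the replicates and may not hold for separate fish. In the main fit their error comes from all 28 arrays, not only from those compared. Total RNA was labelled with Cy3 and hybridised to 1-colour Agilent arrays.

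The liver makes most plasma proteins, handles dietary lipid and sugar, and breaks down foreign compounds. In egg-laying fish it also makes yolk precursor proteins in response to oestrogen from the ovary, a demand that is low in regressed females. Control groups sampled at successive times show how far expression differs between samplings without the compound. Transcripts are given by their probe, because the files pair the probes with contig names, gi numbers or clone names and not with genes. None of the 15208 identifiers matched the 64593 genes of the reference table, so liver markers and pathway lists could not be checked.

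Scan day overlapped with time. All 4 arrays of 24 h were scanned on the second day, on slides 1, 2 and 5. Of the 5 arrays of 48 h, 4 were scanned on the first day, on slides 3 and 4, and only replicate 1 on the second day, on slide 2. Slide 2 was the only slide that held both times, with 1 array of each. Apart from that 1 array, time and scan day cannot be told apart here.

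No transcript of control liver passed correction for a difference between 48 h and 24 h in the main fit. Levels are log2 signals relative to the 75th percentile of the same array, and a probe was tested if the scanner software called it well above background on 3 or more arrays of any group. In limma with Benjamini-Hochberg adjustment, 0 of 11492 probes (0%) had an adjusted p under 0.05, and the lowest value was 0.712. The unadjusted p was under 0.05 for 598 probes, or 5.2%, and 5% of the tested probes is 575. This share depended on the fit: it was 10.4% with the 9 arrays alone and 3.19% with slide as a term. With array weights it was 16.3%, and 38 probes then passed after adjustment. With normexp background correction, described below, it was 1.83%. Of the 598, 136 were higher at 48 h (1.18%) and 462 were lower (4.02%). The higher ones differed by a median of 1.76 log2 units and the lower ones by a median of 1.20.

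The excess of lower probes depended on the scaling, and on the slide and scan-day terms given below. The median difference of all tested probes was -0.10 log2 units with the 75th percentile and 0.02 with each array's median as its reference. With median scaling the split was 204 higher and 327 lower, with quantile normalization 230 and 430, and with the values of the authors' deposited table it was 206 and 400. Lower probes outnumbered higher ones under each of these scalings, and also with normexp, a background model that shrinks differences of dim spots, at 66 and 144. The probes with gi numbers were dimmer than the contigs, at a median level of -3.10 over all 28 arrays. Of 1971 tested, 8 were higher and 98 lower. Together these were 5.38%, near the 5.2% of all tested probes. By direction they were 0.41% higher and 4.97% lower, against 1.18% and 4.02% of all tested probes.

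Lower signals at 48 h lay mostly among dim probes. Tested probes were ranked by their mean level over all 28 arrays into 4 sets of 2873. In the dimmest set, 165 were lower and 35 higher at the unadjusted threshold, and the median difference was -0.31. In the second set the numbers were 165 and 41, with a median of -0.20. In the third they were 96 and 36. In the brightest set 36 were lower and 24 higher, and the median was 0.02. Shares at the threshold, dimmest set first, were 6.96%, 7.17%, 4.59% and 2.09%, against 5.2% of all tested probes. The share of the dimmest set that was well above background was 70.0% ± 25.2 (SD, n = 4) at 24 h and 51.2% ± 27.9 (SD, n = 5) at 48 h, a difference smaller than either SD. The tested probes had been chosen by the same flag, on 3 or more arrays of any group, out of 4 at 24 h and 5 at 48 h. The filter thus set part of these shares, and they cannot show how far the times differ. The part of background in the signal differences of the dim probes was not tested.

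**Figure D1:**
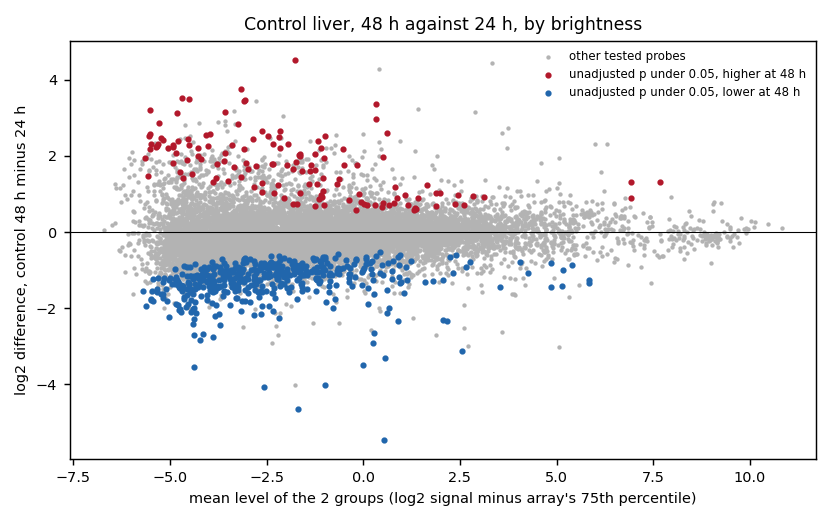
Each point is 1 of 11492 tested probes: the x axis gives the mean level of the 24 h and 48 h controls (log2 signal minus the array's 75th percentile) and the y axis the log2 difference, 48 h minus 24 h. Red marks the 136 probes higher and blue the 462 lower at an unadjusted p under 0.05; the blue points crowd at low levels.

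The brightest probes of control liver differed less between the times than tested probes in general, as a description. Among the 100 brightest probes of the 9 arrays, the median absolute difference was 0.15 log2 units, against 0.36 over all 11492. Their median SE was smaller too, at 0.43 against 0.53. In these 100 the extremes were -0.82 and 0.79, and 0 had an unadjusted p under 0.05. Among the 500 brightest, 24 differed by more than 2-fold, from -3.01 to 2.32, and 11 had an unadjusted p under 0.05. These are 4.8% and 2.2% of the 500, where 11.5% and 5.2% of all tested probes were so. For 17.4% of tested probes the whole 95% confidence interval was inside a 2-fold change in both directions, and for 74.3% inside a 4-fold change. For the 7408 probes well above background on all 9 arrays these shares were 25.9% and 85.1%. For most transcripts the interval thus reached a 2-fold difference.

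Among probes well above background on all 9 arrays, those with the smallest p in each direction are described next. UF_Ppr_AF_104491, contig FJU.10353.C3, was the leading probe on the higher side. Its 4 levels at 24 h were -1.77, -1.45, -1.11 and -1.19, and its 5 levels at 48 h were -0.58, -0.22, 1.21, 1.34 and 0.22. Every 48 h array lay above every 24 h array. The means were -1.38 ± 0.30 (SD, n = 4) and 0.39 ± 0.85 (SD, n = 5), so that 48 h was higher by 1.77 (SE 0.48), with a limma adjusted p of 0.896. The array scanned on the second day was the lowest of the 48 h arrays. With array weights it was 1.94, with a limma adjusted p of 0.0275. Within slide 2, with 1 array of each time, the difference was 0.53. At 72 h the controls spread from -1.65 to 0.19, across both earlier groups. Another probe carries the same contig number, FJU.10353.C2; it was dim and differed by 0.63 with an SE of 0.67.

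UF_Ppr_AF_105673, contig FJU.5645.C1, followed on the higher side. At 24 h it stood at -2.96, -2.73, -2.01 and -1.19, and at 48 h at 0.19, -0.04, -1.84, -0.22 and -0.40. The groups overlapped at 1 array of 48 h, replicate 3, while the second-day array of 48 h was the highest. The difference was 1.76 with an SE of 0.50, a 3.39-fold higher mean at 48 h, and its limma adjusted p was 0.896. With normexp background correction the difference was 1.06, and within slide 2 it was 2.20. The 72 h controls, from -2.25 to -0.44, overlapped both.

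UF_Ppr_AF_112748, contig FJU.10446.C2, had the smallest p of all tested probes. Its levels at 24 h were 2.80, 3.54, 3.48 and -0.95. At 48 h they were -0.81, -0.46, -1.82, -1.05 and -1.29. Of the 24 h arrays, 3 were far above all 48 h arrays and replicate 4 lay among them. The mean was 9.85-fold lower at 48 h, a log2 difference of -3.30 with an SE of 0.75 and a limma adjusted p of 0.712. Without 24 h replicate 4 the difference was -4.36 with a limma adjusted p of 0.00387. Controls of 72 h did not continue the low level: they lay between 0.41 and 2.46, above every 48 h control. Exposed livers of 48 h lay between 0.62 and 1.99, also above every 48 h control.

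UF_Ppr_AF_109848, which carries a gi number, was second on the lower side. It stood at -1.64, -0.83, -2.49 and -1.57 at 24 h and at -3.43, -3.44, -3.28, -3.93 and -3.83 at 48 h. The groups did not overlap, and the second-day array of 48 h sat with the other 48 h arrays. The difference was -1.95 with an SE of 0.45 and a limma adjusted p of 0.712. With array weights it was -1.76, with a limma adjusted p of 0.0193. With normexp background correction it was -0.84, and within slide 2 it was -0.94. With normexp the groups overlapped: 48 h replicate 3 stood at -1.46 and 24 h replicate 3 at -1.60. At 72 h the controls averaged -2.76 ± 0.55 (SD, n = 5), between the 2 earlier means.

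A pair of further probes is named after their values were seen, because each passed in some fits that took the spread from control arrays alone. UF_Ppr_AF_115263, contig FJU.7218.C1, was well above background on all 9 arrays and had the most even replicates of the 6 probes. The 24 h arrays gave -2.68, -2.36, -2.89 and -2.66. The 48 h arrays gave -0.72, -0.67, -0.99, -0.65 and -1.04. The gap between the groups was wider than the range within either, and the second-day array of 48 h lay inside the range of the others. The difference was 1.83, or 3.56-fold, and 1.05 with normexp background correction. In the fit of all 28 arrays the SE was 0.63 and the limma adjusted p 0.896. At this probe the 24 h exposed livers spread from -4.86 to -0.14. Fitted to the 14 control arrays its limma adjusted p was 0.0148. Fitted to the 9 arrays compared, its limma adjusted p was 0.0748 over all tested probes, and 0.579 there with normexp. Over probes well above background on all 9 arrays, it was 0.0331 in limma. Controls of 72 h stood at -0.42 ± 0.31 (SD, n = 5), near the 48 h level.

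UF_Ppr_AF_118425, contig FJU.12942.C1, was the other. It stood at -1.13, -0.63, 0.25 and -0.60 at 24 h and at -3.73, -5.11, -4.98, -4.48 and -4.71 at 48 h, without overlap. All 4 arrays of 24 h had it well above background, and 2 of the 5 arrays of 48 h did. The log2 difference of -4.08 had an SE of 0.98 in the fit of all arrays, with a limma adjusted p of 0.712, and a limma adjusted p of 0.00839 in the fit of the 9 arrays. With array weights in the fit of all arrays the limma adjusted p was 0.0124. Since 3 of the 5 arrays of 48 h were not well above background, the size of this difference is uncertain. With normexp background correction it was -1.71, and the limma adjusted p in the fit of the 9 arrays was then 0.119. The second-day array, at -3.73, was the 48 h array nearest to the 24 h levels, but the probe was not well above background there. With normexp this array stood at -2.32, and the other 48 h arrays ran from -2.54 to -1.65. At 72 h, 3 controls stood between -1.08 and -0.27 and the other 2 at -5.98 and -4.36.

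**Figure D2:**
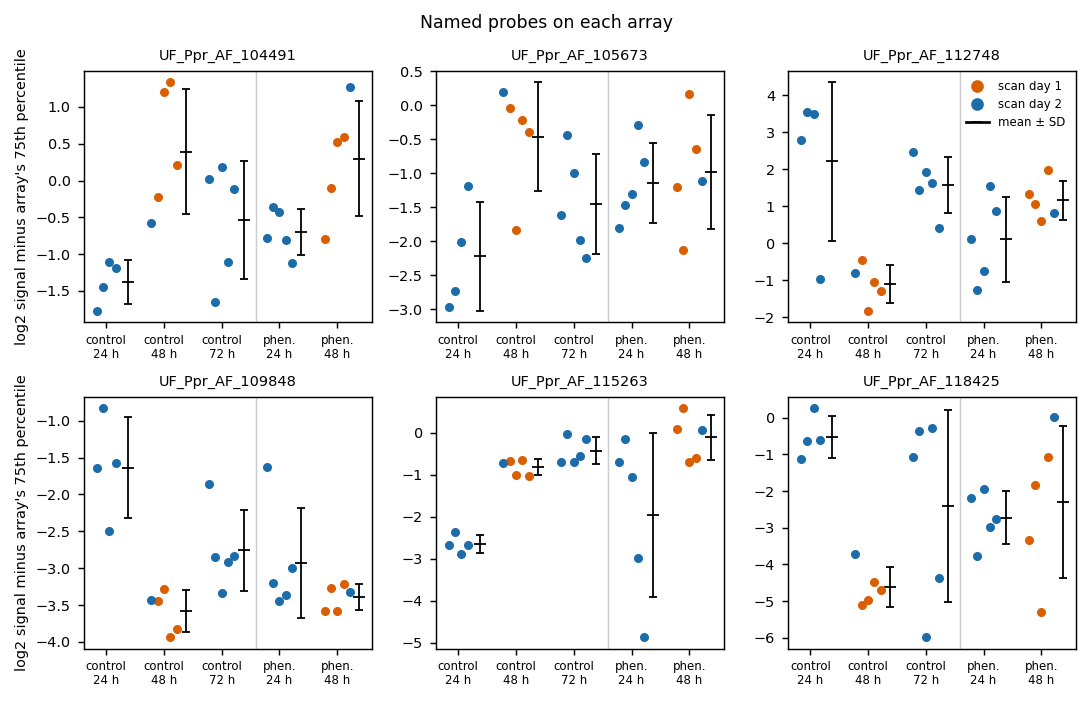
Levels of the 6 named probes on each array (y axis, log2 signal minus the array's 75th percentile) in the 3 control groups and in phenanthrene (phen.) livers of 24 and 48 h; points are arrays coloured by scan day, and bars give the mean ± SD. The single second-day array of 48 h controls lies within the range of the first-day arrays of its group at UF_Ppr_AF_115263, UF_Ppr_AF_109848 and UF_Ppr_AF_112748. It lies nearest to 24 h at UF_Ppr_AF_104491 and UF_Ppr_AF_118425, the latter not well above background there, and farthest from 24 h at UF_Ppr_AF_105673.

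A few probes were well above background on every array of 1 time and on no array of the other, as a description. How many other splits of the arrays would give was not tested. Of the 15208 probes, 7408 were well above background on all 9 arrays, 1720 on none and 6080 on some. There were 7 probes well above background on all 4 arrays of 24 h and on no array of 48 h. Their means were 1.36 to 1.89-fold lower at 48 h. Here the dim group is taken at the lowest signal well above background on each array, or at its own signal where that is higher. These ratios of means take no account of error and are not minimum differences. In the opposite direction there were 2 probes, named after their values were seen. UF_Ppr_AF_101258, contig FJU.4943.C1, was 2.87-fold higher at 48 h by the same ratio of means. Its measured means were -5.65 at 24 h and -3.35 at 48 h, with a limma adjusted p of 0.904. UF_Ppr_AF_111703, contig FJU.12805.C1, was 2.43-fold higher by that ratio, with measured means of -5.99 and -3.59 and a limma adjusted p of 0.904. At this probe the 48 h arrays ran from -4.73 to -1.11, and the brightest was the second-day array. In exposed liver, UF_Ppr_AF_111703 exceeded background clearly on 1 array of 24 h and on 4 arrays of 48 h, of 5 each, and UF_Ppr_AF_101258 on 3 arrays at each time. With normexp the control differences were 0.46 log2 units for UF_Ppr_AF_101258 and 0.54 for UF_Ppr_AF_111703, both smaller than the ratios above.

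Counted by arrays rather than by the fit, 484 of 11469 probes (4.22%) had no overlap between the times. The 5% given above belongs to the unadjusted p and is no reference for this share. The share that other splits of the arrays would give was not tested. At 129 of the 484 probes (1.12% of all) all 5 arrays of 48 h lay above all 4 of 24 h, and at 355 (3.1%) all lay below. Among the 598 probes at the unadjusted threshold, 51 of the 136 higher and 184 of the 462 lower ones had no overlap. The median within-group SD over 10933 probes was 0.49 log2 units at 24 h (n = 4) and 0.62 at 48 h (n = 5). Whole profiles were about as alike between the times as within 48 h: the median correlation across probes was 0.908 between 24 and 48 h, 0.909 within 48 h and 0.930 within 24 h, where probes are not independent replicates.

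Exposed livers of 24 and 48 h share no array with these controls, but share slides and scan days with them: 4 of their 5 arrays of 48 h were scanned on the first day, too. At the 136 probes higher at 48 h in controls, the exposed livers were also higher at 48 h at 111, or 81.6%, against 43.7% of all 11492 probes, with a median difference of 0.57. At the 462 lower probes, exposed livers were lower at 363, or 78.6%, against 56.3% of all probes, with a median of -0.48. The control arrays' own differences chose these probes. In exposed liver 30 of the 136 (22.1%) were higher at an unadjusted p under 0.05, where 3.57% of all probes were. Of the 462, 101 (21.9%) were lower, where 7.94% of all probes were. The exposed comparison itself had 1 probe (0.0087%) with a limma adjusted p under 0.05 and 1323 (11.5%) at the unadjusted threshold. Without 3 exposed arrays of doubtful quality, left out after seeing the data, these were 0 and 1506 (13.1%). Among those arrays, 24 h replicate 3 had 5127 probes well above background and 48 h replicate 1 had 201 spots left out. Across all tested probes the differences of the control and the exposed arrays correlated with r = 0.38 (rho = 0.34), as a description across probes.

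At the named probes, the exposed differences ranged from near the control value to the opposite sign. UF_Ppr_AF_115263 was higher at 48 h by 1.84 (SE 0.59) in exposed liver, next to 1.83 in controls, although the exposed arrays overlapped. Its exposed levels at 24 h were -0.69, -0.14, -1.06, -2.99 and -4.86, the last not well above background. At 48 h they ran from -0.69 to 0.58, so the 1.84 rested largely on the arrays at -2.99 and -4.86. UF_Ppr_AF_104491 was higher by 0.998 (SE 0.453). UF_Ppr_AF_105673 differed by 0.16 (SE 0.47) and UF_Ppr_AF_109848 by -0.47 (SE 0.43), each near or within its error. UF_Ppr_AF_118425 differed by 0.43 (SE 0.93) in exposed liver, with 4 of 5 arrays of 24 h and 5 of 5 of 48 h well above background. UF_Ppr_AF_112748 was higher by 1.06 (SE 0.70), against -3.30 in controls, and the difference of these changes was -4.36 with an SE of 1.03. Tested over all probes in limma, 0 of 11492 (0%) had a control change that differed from the exposed one at an adjusted p under 0.05, with a smallest adjusted p of 0.999, and 364 (3.17%) did so without adjustment, 162 upwards (1.41%) and 202 downwards (1.76%). Without control 24 h replicate 4, 1 probe passed in limma, UF_Ppr_AF_112748, at -5.41 with an adjusted p of 0.0107.

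**Figure D3:**
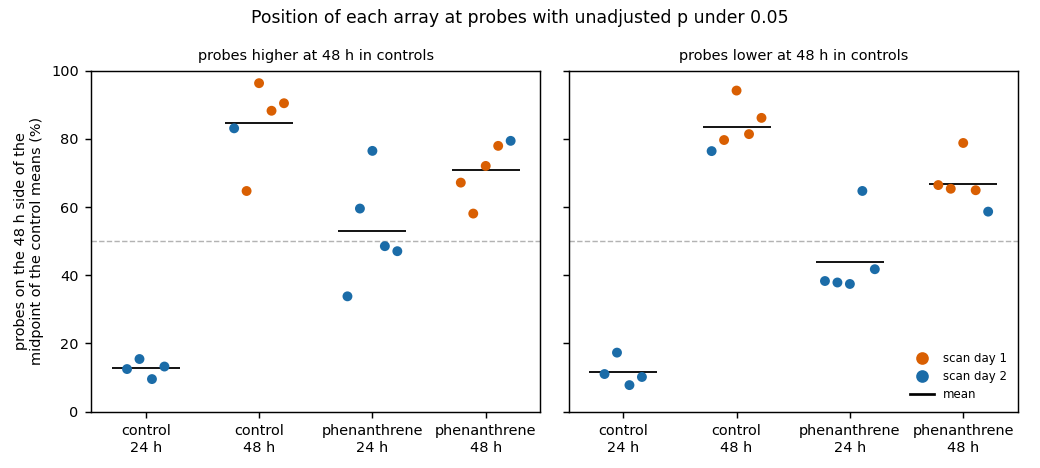
Share of the 136 higher (left) and 462 lower (right) probes at which each array lay on the 48 h side of the midpoint between the control means (y axis, %), for control and phenanthrene arrays coloured by scan day, with the group mean as a line. The control arrays chose these probes; among exposed arrays, which did not, those of 48 h lay between 58.1% and 79.4% and those of 24 h between 33.8% and 76.5%.

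Only the 48 h groups were scanned on both days, with 1 second-day array of 5 in the controls and 1 of 5 in the exposed livers, so a scan-day term rests on both of these arrays. With scan day as a term in the limma model, 0 probes passed after adjustment, while 159 were higher and 209 lower without it, 368 in all. With slide as a block there were 0 and 367, of which 169 were higher and 198 lower. Within slide 2 there were 0 and 329, but there each time had 1 array, which was assumed to vary like the arrays of the other groups. Under the scan-day term the differences of the named probes were 1.77 for UF_Ppr_AF_104491, 2.02 for UF_Ppr_AF_105673, -1.84 for UF_Ppr_AF_109848 and -3.33 for UF_Ppr_AF_112748, close to those without it, with SEs of 0.64 to 1.05. For UF_Ppr_AF_115263 the difference was 1.97 (SE 0.88). For UF_Ppr_AF_118425 it was -2.48 (SE 1.30), against -4.08 without the term. With slide as a block, UF_Ppr_AF_109848 differed by -1.42 (SE 0.62) and UF_Ppr_AF_118425 by -2.39 (SE 1.43). The others then differed by 1.83 (UF_Ppr_AF_104491), 1.64 (UF_Ppr_AF_105673), -3.20 (UF_Ppr_AF_112748) and 2.33 (UF_Ppr_AF_115263). The second-day control array of 48 h had 8781 probes well above background, near the 8722 of 48 h replicate 3 and below the 9403 to 12180 of 24 h. Its negative-control level was 2.38 log2 units, against 0.63 to 1.30 at 24 h.

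Differences in overall brightness between the times did not pass a test. Probes well above background numbered 11050 ± 1279 (SD, n = 4) at 24 h and 10132 ± 1349 (SD, n = 5) at 48 h, a difference of -918 (exact two-sided permutation test, p = 0.302, adjusted p = 0.556 over 5 measures). The log2 75th percentile differed by 0.03 (exact permutation p = 0.897). The mean of the 10 spike-ins, control RNAs read by 20 spots each that carry no liver RNA, was 9.21 ± 0.88 log2 units (SD, n = 4) at 24 h and 9.58 ± 0.66 (SD, n = 5) at 48 h (exact permutation p = 0.476).

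In the planned exact permutation tests of log2 signal, no kind of control spot passed, with a lowest adjusted p of 0.61. Relative to their own mean, the spike-ins repeated closely, and some of them differed between the times. Their SD within a time was 0.00486 to 0.168 log2 units on that reference. Liver probes of like brightness, with 1 spot each, had a median SD of 0.35 to 0.66. Liver levels are relative to the 75th percentile, so these SDs are not on 1 scale. Relative to the 75th percentile, the spike-ins had SDs of 0.41 to 0.52 at 24 h and 0.79 to 0.98 at 48 h. Spike-in (+)E1A_r60_a20 lay at -2.03 ± 0.05 (SD, n = 4) at 24 h and -2.28 ± 0.06 (SD, n = 5) at 48 h, and (+)E1A_r60_n11 at 3.51 ± 0.03 (SD, n = 4) and 3.58 ± 0.02 (SD, n = 5). In both, the groups did not overlap and the second-day array of 48 h, at -2.22 and 3.58, lay on the 48 h side. Each gave p = 0.00794 in the exact permutation test, the smallest that 4 against 5 arrays allow, and an adjusted p of 0.0397 over the 10 spike-ins. The other 8 had adjusted p-values of 0.106 or more by the same exact test. This test, relative to the spike-in mean, was chosen after the values were seen. These differences, of -0.25 and 0.07 log2 units, were smaller than those of the named probes, which are relative to the 75th percentile. Their part in the liver differences was not tested. On other arrays these spike-ins overlapped both compared groups. In exposed livers of 48 h, (+)E1A_r60_a20 ran from -2.30 to -1.70. In controls of 72 h, (+)E1A_r60_n11 ran from 3.49 to 3.61.

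**Figure D4:**
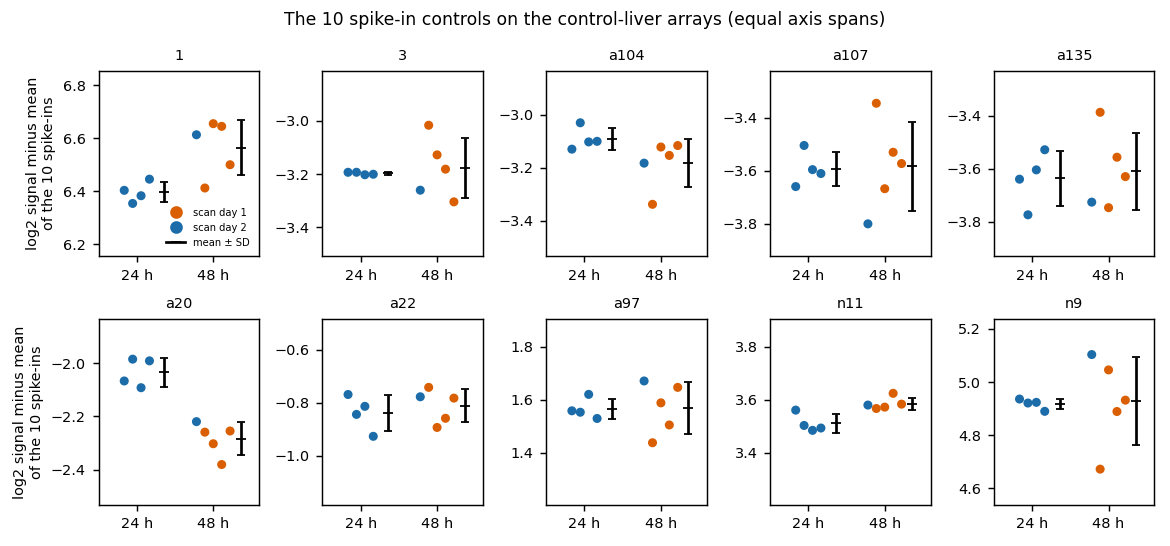
Log2 signal of each of the 10 spike-ins minus their mean on the same array (y axis, equal spans) for the 4 arrays of 24 h and the 5 of 48 h controls; points are arrays coloured by scan day, bars the mean ± SD. Spike-ins a20 and n11 show no overlap between the times.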

How the data were processed

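Each deposited scanner table holds the linear processed intensity of 1 array, made with Agilent Feature Extraction 10.7.1.1 from 15744 spots, of which 15208 are probes and 536 controls, per the file headers. A log2 table of the same arrays was also deposited by the authors. Its scaling and centring are not given in the sources used here. It served as an alternative, and 1 of its columns, a baseline of no sample, was not used. Log2 intensities were reduced by each array's 75th percentile. Spots marked non-uniform or as population outliers, 26 on the 9 arrays, were left out, and no probe was saturated there. The limma 3.58.1 model (R 4.3.3) held the means of all 6 groups and left 22 residual degrees of freedom. Tests were two-sided, with Benjamini-Hochberg adjustment. The model was run on simulated data with independent normal errors and no slide or scan-day effects, so that check does not cover such effects. Named probes were the 2 higher and the 2 lower with the smallest p among probes well above background on all 9 arrays; others are marked. Normexp correction used an offset of 50 on median spot signals. Alternatives were other scalings, filters, blocks, priors, array weights and subsets of arrays. The comparison, lists and rules were chosen with earlier results of these data known. Planned gene lists matched 0 probes and were not used. The number of arrays limits the precision.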

Additional observations from a re-analysis of the deposited data

Results flagged for a closer look

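Of 46 groups of 4 or 5 arrays examined for a value far from the others, 4 held one, where chance flags about 1 in 20. UF_Ppr_AF_112748 on 24 h control replicate 4 stood at -0.95, far below the other 3 arrays of its group. UF_Ppr_AF_105673 on 48 h control replicate 3 stood at -1.84, below the other 4. UF_Ppr_AF_109848 stood at -1.63 on 1 exposed array of 24 h, above the other 4. Spike-in (+)E1A_r60_n11, relative to the mean of the spike-ins, was 3.62 on 48 h control replicate 4, above the other 4.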

How the results depend on the processing

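No probe passed in limma under 22 of 28 alternatives. Over all 28, the smallest limma adjusted p was 0.00387, in the fit without control 24 h replicate 4. Passing probes numbered 1 in the fit of the 9 arrays (UF_Ppr_AF_118425), 1 in that of the 14 controls (UF_Ppr_AF_115263), 38 with array weights (34 lower), and 0 to 1 with each array left out. Chosen after seeing the data, the 9-array fit gave 2 with array weights (both named above), 1 over probes well above background on all 9, and 0 with normexp (smallest adjusted p 0.119). The unadjusted count of 598 became 210 with normexp, 306 with probes well above background on all 9 arrays, 367 with slide and 368 with scan day as a block, 329 within slide 2 (1 array a time, spread from other groups), 1193 in the 9-array and 1065 in the 14-control fit, 1873 with array weights (1815 in the 9-array fit), and 908 without 3 exposed arrays of doubtful quality, an alternative chosen after seeing the data; it was 436 to 760 with each array left out. Non-overlapping probes, 484, became 261 with normexp and 279 over probes well above background on all 9, and 634 to 1062 without 1 array, as fewer arrays overlap less. The share of control-chosen probes with the same direction in exposed liver, 79.3%, was 74.7% with quantile normalization, 75.7% with normexp, 75.6% over probes well above background on all 9, 72.2% without the 3 doubtful arrays and 72.2% to 85.8% without 1 array. The number of passing differences between control and exposed changes was 0 to 1 without 1 array; the 9-array, 14-control and within-slide fits cannot give it. Log2 brightness, 0.03 higher at 48 h by the 75th percentile, differed by -0.0857 by the median, and by -0.19 to 0.22 without 1 array; the spike-in mean differed by -0.0221 to 0.69. Probes well above background differed by -1467 to -541 without 1 array and by -2269 on second-day arrays only, where negative controls differed by 1.38. In these cases the cause was not tested. All 112 alternative values of the 4 named probes kept their sign, and 3 passed: UF_Ppr_AF_104491 and UF_Ppr_AF_109848 with array weights, and UF_Ppr_AF_112748 without 24 h replicate 4. These probes were chosen by their p on the same arrays, so the kept sign is no separate support. No paired analysis was possible because replicate numbers follow the order of deposit.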
